A study of Arabidopsis thaliana with 6 samples.

Results

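The genes described here are 10 regulators of salicylic acid synthesis and signalling, *ICS1*, *EDS5*, *PBS3*, *EDS1*, *PAD4*, *SAG101*, *NPR1*, *SARD1*, *CBP60g* and *NIMIN1*, out of 33554 genes in the deposited tables. They were chosen by name as members of this pathway, with their difference between the genotypes in these same libraries already known, so that their fold changes are given as a description and not as a test of the pathway. All 10 were found by locus identifier and all 10 passed the filter on low counts, with between 28 and 5673 counts per library.

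RNA was compared between dissected apices of the primary inflorescence of wild-type Col-0 plants (WT) and of *vip3-1*, a T-DNA insertion mutant in the same Col-0 ecotype. *VIP3* encodes a subunit of the Paf1 complex, which travels with RNA polymerase II, and it also acts in the SKI complex of RNA turnover. Both genotypes were untreated and were raised under short days (21°C) before a move to constant light (16°C), and flowers past stage 4 were cut away. Tubes of 30 to 35 apices were collected, 6 per genotype, and RNA of 2 tubes was joined for each library, so that there were 3 libraries per genotype. The study calls them technical triplicates, no source used here states that tubes came from separately grown plants, and the spread between libraries may therefore be technical.

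Salicylic acid is a plant hormone that accumulates after infection and drives local and systemic defence. Most of the defence-related pool in *Arabidopsis* is made in the plastid from chorismate by isochorismate synthase, moved to the cytosol by a transporter of the MATE family and joined to glutamate by PBS3, after which the conjugate breaks down to salicylic acid. EDS1, bound to PAD4 or SAG101, relays signals from immune receptors and raises salicylic acid, the transcription factors SARD1 and CBP60g switch on the synthesis genes, and NPR1 binds the hormone and activates defence genes together with TGA factors, with NIMIN proteins as modulators.

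Libraries held between 50040048 and 69033269 estimated counts, and levels below are CPM, counts relative to the TMM-scaled library size, unless FPKM, which also divides by transcript length, is named. The targeted gene, *VIP3*, stood at 40.8, 41.7 and 40.1 CPM in WT and at 5.96, 7.41 and 7.30 CPM in *vip3-1*, which matched the labels. Of 20690 genes tested with edgeR's quasi-likelihood test, 6354 (30.7%) had a Benjamini-Hochberg adjusted p-value under 0.05 and are termed called, of which 3031 were higher (14.6% of those tested) and 3323 lower (16.1%) in *vip3-1*. Without TMM scaling the split of 7056 called genes was 2270 higher and 4786 lower. Meristem and flower primordium markers were present in all libraries, with a summed level of 852 to 1089 CPM in WT and 1267 to 1348 CPM in *vip3-1*, and 5 of the 7 were called higher. With the replicate number as a block 6 were called higher (*ANT* at a log2 fold change of 0.32), where 35.7% of all tested genes were called in either direction. WT replicate 3 stood apart, since 12 tapetum and pollen wall markers of older flowers summed to 1190 CPM there, to 75.9 and 79.8 CPM in the other WT libraries, and to between 40.3 and 101 CPM in *vip3-1*. None of the 11 of these markers that were tested was called by edgeR, with log2 fold changes of −3.67 to −0.08, and 2 had an unadjusted p-value under 0.05. DESeq2 called 3 of the 11, beside 8084 of all 20690 tested genes. With the replicate block edgeR called 2 of these markers lower, *AMS* at −2.32 and *ACOS5* at −2.86, beside the same 35.7% of all tested genes.

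Sequences upstream of 3 of the genes are shown because *SARD1* had the lowest fold change of the 10, *EDS5* was the one gene that was higher, and *ICS1* catalyses the committed step. Each is the 300 bases before the annotated transcript start in the RefSeq TAIR10.1 assembly, on the gene's own strand. Capitals mark 3 motifs on either strand, TTGAC (the core of the W-box that WRKY factors bind), TGACG (the core bound by TGA factors) and GAAATTT (the letters that CBP60g and SARD1 bind in *Arabidopsis*). TTGAC and TGACG overlap where TTGACG occurs.
*ICS1*, chr1:28069995-28070294, plus strand: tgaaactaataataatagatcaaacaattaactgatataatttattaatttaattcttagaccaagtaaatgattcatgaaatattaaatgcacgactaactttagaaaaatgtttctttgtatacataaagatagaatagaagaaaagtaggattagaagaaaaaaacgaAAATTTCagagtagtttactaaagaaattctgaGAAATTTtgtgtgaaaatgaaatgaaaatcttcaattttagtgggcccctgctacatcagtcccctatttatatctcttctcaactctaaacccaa
*EDS5*, chr4:18185137-18185436, plus strand: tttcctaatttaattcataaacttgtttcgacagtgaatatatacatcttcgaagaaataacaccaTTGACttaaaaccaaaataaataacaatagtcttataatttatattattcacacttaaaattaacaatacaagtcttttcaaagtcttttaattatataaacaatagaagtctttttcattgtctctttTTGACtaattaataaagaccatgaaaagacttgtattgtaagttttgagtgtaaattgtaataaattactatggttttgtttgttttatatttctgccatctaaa
*SARD1*, chr1:27749249-27749548, minus strand: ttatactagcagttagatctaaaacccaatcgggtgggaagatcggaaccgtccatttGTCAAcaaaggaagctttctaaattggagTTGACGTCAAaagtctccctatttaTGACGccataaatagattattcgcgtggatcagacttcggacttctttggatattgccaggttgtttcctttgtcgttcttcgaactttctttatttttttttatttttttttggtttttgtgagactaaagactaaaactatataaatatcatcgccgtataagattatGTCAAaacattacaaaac
The *SARD1* window held 4 matches to TTGAC, at 242, 213, 208 and 18 bases before the start, and 3 to TGACG, at 212, 209 and 188 bases, each counted from the first base of the match as printed. The *ICS1* window held 2 matches to GAAATTT, at 129 and 96 bases, and the *EDS5* window 2 to TTGAC, at 234 and 105 bases. Over the 10 genes, 4 windows held TTGAC (*EDS5*, *EDS1*, *SAG101* and *SARD1*), 2 held TGACG (*EDS1* and *SARD1*) and 1 held GAAATTT (*ICS1*). Of 27443 promoter windows of the same length in the annotation, 50.4% held TTGAC, 21.3% TGACG and 14.9% GAAATTT. These matches are a description of the letters and say nothing of binding in the apex.

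Among the 10 regulators, 7 were called in the fit across all genes, 6 lower and 1 higher in *vip3-1*, where 30.7% of all tested genes were called in either direction, 16.1% lower and 14.6% higher. The lower ones were *ICS1*, *PAD4*, *SAG101*, *SARD1*, *CBP60g* and *NIMIN1*, and the higher one was *EDS5*. The CPM of the genotypes did not overlap for 9 of the 10, 8 lower and 1 higher, as for 52.5% of all tested genes in either direction. The median log2 fold change was −0.82 over the 10 genes and −0.02 over all tested genes. Since the genes were proposed with these differences known, nothing is read from their share against that of all genes. With the replicate number as a block, 8 of the 10 were called, *NPR1* being the addition, where 35.7% of all tested genes were called. The number called was 4 without WT replicate 1 and 4 without *vip3-1* replicate 1, and 1 without *vip3-1* replicate 2. In the same fits, in this order, 4469 of 21009, 3238 of 20987 and 2673 of 21045 tested genes were called, so calls also fell over all genes. With 3 libraries against 3, an exact two-sided permutation test of a single gene cannot go below p = 0.1, so no such test is given.

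**Figure D1:**
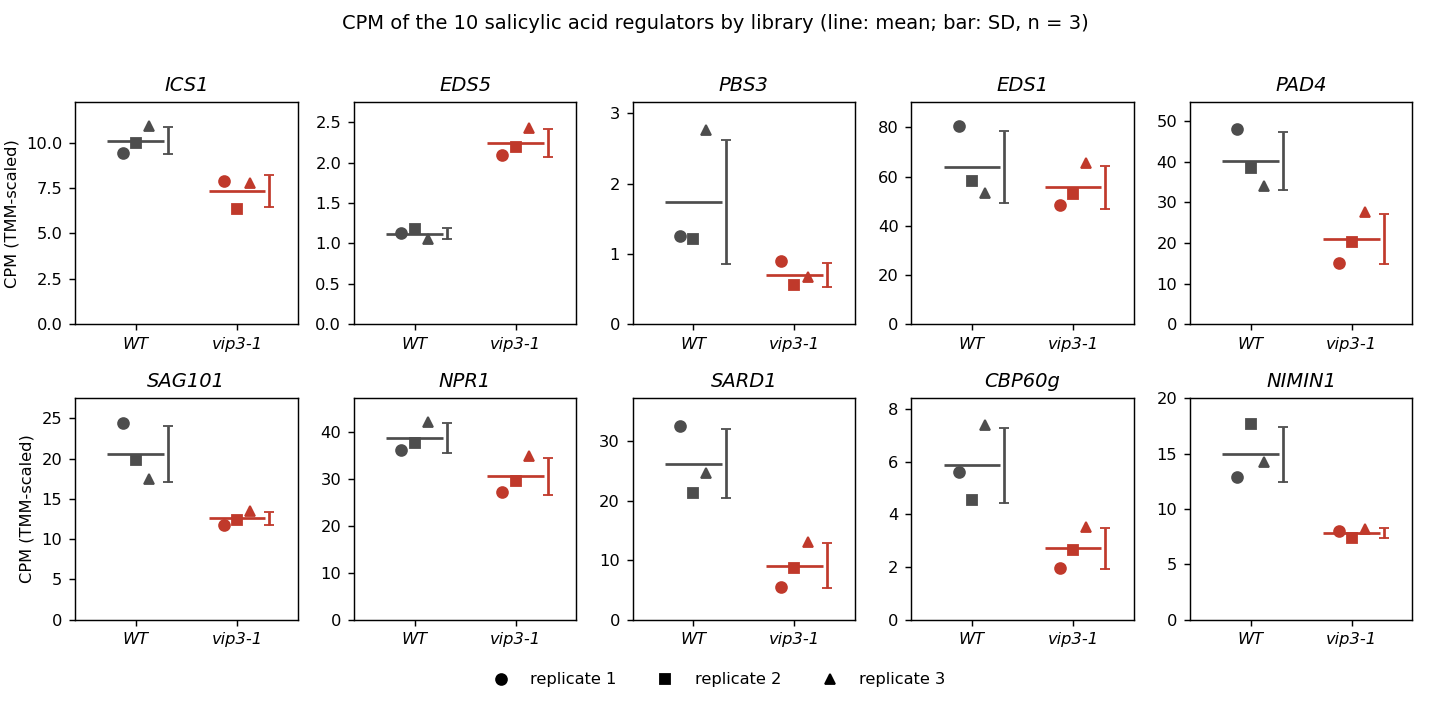
CPM after TMM scaling (vertical axes, starting at 0 and differing between panels) of the 10 regulators in each library, with WT in grey, *vip3-1* in red, symbols for replicates 1 to 3, lines for means and bars for the SD (n = 3). *EDS5* alone is higher in all 3 *vip3-1* libraries, and *EDS1* alone has overlapping genotypes.

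Of the synthesis genes, *ICS1* and *EDS5* went in opposite directions. *ICS1* (AT1G74710, chr1:28070295-28074177, plus strand), which encodes the isochorismate synthase that starts the route, stood at 9.45, 10 and 10.9 CPM in WT and at 7.88, 6.34 and 7.79 CPM in *vip3-1*. All *vip3-1* libraries lay below all WT libraries, and *vip3-1* replicate 2 was the lowest. The means were 10.1 ± 0.71 CPM and 7.34 ± 0.86 CPM (SD, n = 3 per genotype), which gave −0.46 ± 0.12 (SE) as the log2 fold change. The call on *ICS1* held without WT replicate 3 and was lost without any other single library, with log2 fold changes of −0.52 to −0.37.

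*EDS5* (AT4G39030, chr4:18185437-18189224, plus strand) encodes the MATE transporter of the plastid envelope that exports the product of isochorismate synthase. It stood at 1.13, 1.18 and 1.05 CPM in WT and at 2.1, 2.19 and 2.43 CPM in *vip3-1*, and the *vip3-1* values all exceeded those of WT, with little spread in either genotype. The mean in *vip3-1* was 2.00 times that in WT (log2 fold change 1.00 ± 0.20, SE), and the call was lost without *vip3-1* replicate 2 (1.01) or *vip3-1* replicate 3 (0.92). Exons of *EDS5* overlap AT4G39040, a gene on the opposite strand, over 213 bases. AT4G39040 stood at 49.9, 51.7 and 56.4 CPM in WT and at 47.6, 46.7 and 44.2 CPM in *vip3-1*, and was not called. The strand setting of the counting is not given in the sources used here, so reads in this overlap cannot be assigned to either gene.

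*PBS3* (AT5G13320, chr5:4267456-4271064, plus strand) encodes the enzyme that conjugates isochorismate to glutamate. It was at 1.26, 1.21 and 2.76 CPM in WT and at 0.893, 0.552 and 0.665 CPM in *vip3-1*. The genotypes did not overlap, but WT replicate 3, the library with the high tapetum markers, had more than the other WT libraries. The log2 fold change was −1.30 ± 0.41 (SE) and was not called, and it was −0.81 without WT replicate 3. Whether the cells behind the tapetum markers contribute to *PBS3* was not tested.

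The EDS1 node was lower at *PAD4* and *SAG101* and showed overlapping genotypes at *EDS1* itself. *EDS1* (AT3G48090, chr3:17755329-17758147, minus strand), the lipase-like protein at the centre of the node, stood at 80.4, 58.1 and 53.2 CPM in WT and at 48.4, 53.0 and 65.5 CPM in *vip3-1*. WT replicate 1 was the highest and *vip3-1* replicate 1 the lowest, and *vip3-1* replicate 3 exceeded WT replicates 2 and 3. The log2 fold change was −0.20 ± 0.18 (SE), not called, and it was −0.002 without WT replicate 1.

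*PAD4* (AT3G52430, chr3:19431095-19434450, plus strand), the partner through which EDS1 promotes salicylic acid accumulation, stood at 48.0, 38.4 and 34.0 CPM in WT and at 15.1, 20.3 and 27.5 CPM in *vip3-1*. The groups were apart, although the gap between them was smaller than the range within either genotype. The log2 fold change was −0.94 ± 0.23 (SE). The call held without WT replicate 3 or *vip3-1* replicate 3, and was lost without WT replicate 1 (−0.79), WT replicate 2 (−0.97), *vip3-1* replicate 1 (−0.76) or *vip3-1* replicate 2 (−0.92).

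*SAG101* (AT5G14930, chr5:4828499-4830982, plus strand), the alternative partner that acts with EDS1 in cell death, was at 24.4, 19.8 and 17.5 CPM in WT and at 11.8, 12.4 and 13.5 CPM in *vip3-1*. Its *vip3-1* libraries were tightly grouped and all below WT. The log2 fold change was −0.71 ± 0.14 (SE), and the call was lost without *vip3-1* replicate 2 alone (−0.71). For *EDS1*, *PAD4* and *SAG101* alike, replicate 1 was the highest WT library and replicate 3 the lowest, and in *vip3-1* replicate 3 was the highest and replicate 1 the lowest.

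*EDS1* lies 138 bases from AT3G48080, a gene on the same strand that the RefSeq annotation names an alpha/beta-hydrolase superfamily protein. Their coding sequences were 84.0% identical over 1859 aligned bases. The longest run that the coding sequences share, starting at coding position 447 in both, is 44 bases long. It is shown as the longest identical stretch of the coding sequences alone, and exon bases outside the coding sequence were not searched for a longer one. Only a read of at most 44 bases can lie wholly inside this run.
Shared coding run of *EDS1* and AT3G48080 on chromosome 3, coding strand: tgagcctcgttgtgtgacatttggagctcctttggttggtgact
Of the 2355 windows of 50 bases in *EDS1* exons, 0.977% occurred elsewhere in the genome, as did 0.947% of the 2429 in AT3G48080 exons. These windows numbered 23 in each gene. They are longer than the run shown and so do not lie inside it, and reads longer than 44 bases may therefore also match more than 1 place. Whether the 23 windows are shared between these 2 genes was not tested. AT3G48080 stood at 19.3, 18.3 and 19.8 CPM in WT and at 3.03, 5.16 and 5.54 CPM in *vip3-1*, lower in every *vip3-1* library (log2 fold change −2.06 ± 0.22, SE, edgeR adjusted p = 0.0025). Exons of AT3G48080 overlap AT3G48070, a protein-coding gene on the opposite strand, over 503 bases. Without the strand setting of the counting, reads in this overlap cannot be assigned to either gene. AT3G48080 made up 19.4, 23.9 and 27.1% of the counts of the pair in WT and 5.89, 8.88 and 7.80% in *vip3-1*. The 95% Wilson intervals, which cover counting error only, ran from 18.5 to 28.5% over the WT libraries and from 5.05 to 9.96% over those of *vip3-1*. With the counts of both genes summed, the log2 fold change was −0.46 ± 0.16 (SE) and was not called.

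**Figure D2:**
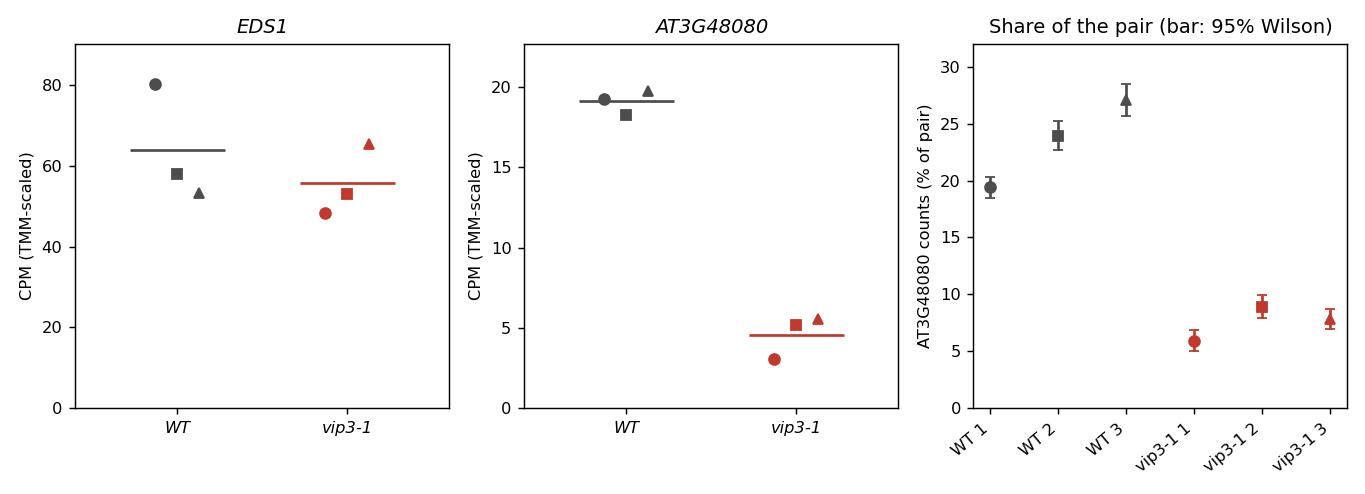
CPM of *EDS1* (left) and AT3G48080 (middle) in each library with the mean of 3 as a line, and the percent of the pair's counts that fell on AT3G48080 with 95% Wilson intervals (right), for WT in grey and *vip3-1* in red. The genotypes overlap for *EDS1*, and the share of AT3G48080 lies between 19.4 and 27.1% in WT and between 5.89 and 8.88% in *vip3-1*.

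The related transcription factor genes *SARD1* and *CBP60g*, which both bind the *ICS1* promoter in *Arabidopsis* and partly stand in for each other, were the lowest and the third lowest of the 10 by fold change. *SARD1* (AT1G73805, chr1:27744790-27749248, minus strand) stood at 32.5, 21.2 and 24.7 CPM in WT and at 5.55, 8.63 and 13.1 CPM in *vip3-1*. No *vip3-1* library reached WT, and within *vip3-1* replicate 3 was the highest and replicate 1 the lowest. The mean in WT was 2.88 times that in *vip3-1*, with a log2 fold change of −1.52 ± 0.32 (SE), and the call was lost without *vip3-1* replicate 2 alone (−1.49). An antisense gene, AT1G73790, overlaps *SARD1* exons over 640 of their 2397 bases. It stood at 9.79, 8.88 and 8.44 CPM in WT and at 7.04, 7.05 and 7.71 CPM in *vip3-1*, and was not called. In *vip3-1* replicate 1 it thus exceeded *SARD1*. Without the strand setting of the counting, reads in this overlap cannot be assigned to either gene.

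*CBP60g* (AT5G26920, chr5:9475679-9478777, plus strand), the calmodulin-binding member of the pair, was at 5.62, 4.55 and 7.38 CPM in WT and at 1.96, 2.64 and 3.52 CPM in *vip3-1*. Replicate 3 was again the highest *vip3-1* library and replicate 1 the lowest, as for *SARD1*, and none reached the lowest WT library. The log2 fold change was −1.11 ± 0.28 (SE). The call was lost without WT replicate 1 (−1.14), *vip3-1* replicate 1 (−0.93) or *vip3-1* replicate 2 (−1.10).

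Of the signalling genes, *NIMIN1* was called lower and *NPR1* was not, and the difference between their fold changes was not tested. *NPR1* (AT1G64280, chr1:23852748-23855658, minus strand), the salicylic acid receptor and co-activator, stood at 36.3, 37.8 and 42.3 CPM in WT and at 27.3, 29.6 and 34.9 CPM in *vip3-1*. The genotypes were apart, although *vip3-1* replicate 3 came close to WT replicate 1. Its log2 fold change of −0.34 ± 0.11 (SE) was not called, and with the replicate block it was −0.35 ± 0.061 (SE) and was called, and replicate 3 was the highest and replicate 1 the lowest in both genotypes. Without *vip3-1* replicate 3 it was called at −0.46. The *NPR1* exons overlap the antisense pseudogene AT1G64270 over 38 bases and the antisense non-coding RNA AT1G08667 over 214 bases. Reads in these overlaps cannot be assigned either without the strand setting. AT1G64270 was called lower with the block alone (log2 fold change −0.24).

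*NIMIN1* (AT1G02450, chr1:497917-498539, minus strand), a small protein that binds NPR1 and restrains its activity in *Arabidopsis*, stood at 12.9, 17.7 and 14.2 CPM in WT and at 8.01, 7.35 and 8.22 CPM in *vip3-1*. The *vip3-1* values were nearly equal and all under those of WT. The means were 14.9 ± 2.5 CPM and 7.86 ± 0.46 CPM (SD, n = 3 per genotype), and the log2 fold change was −0.92 ± 0.14 (SE). *NIMIN1* was called in each of the 14 alternatives run, the only one of the 10 for which this was so. In whole apices, fewer cells that express such a gene and less RNA per cell cannot be told apart.

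**Figure D3:**
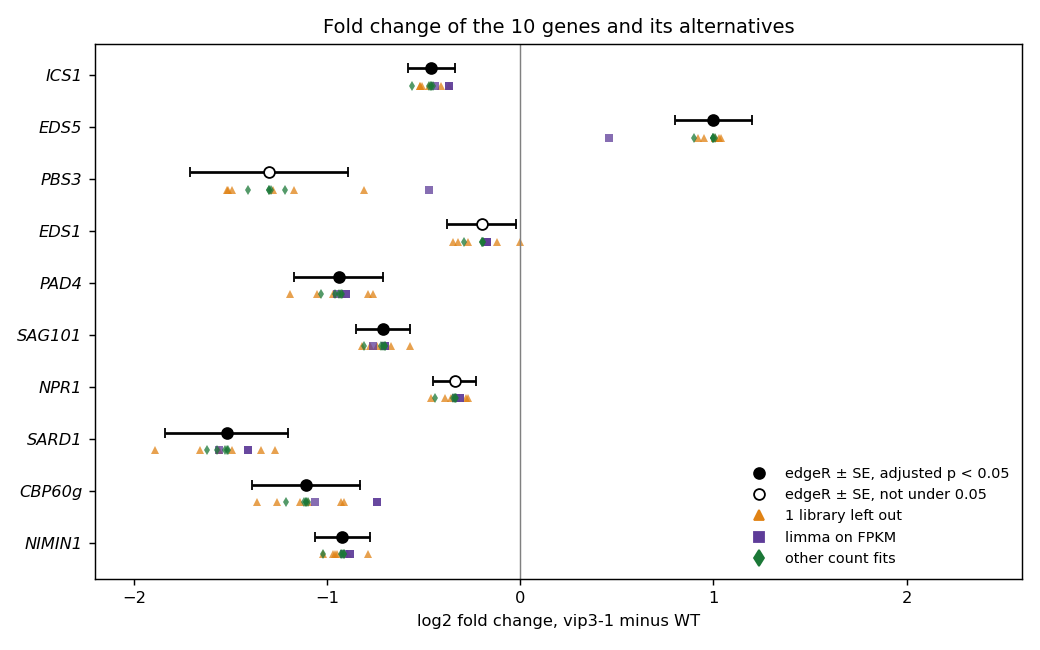
Log2 fold change of *vip3-1* against WT (horizontal axis) for the 10 regulators, with the edgeR value and its SE as a circle and bar (filled where the adjusted p-value was under 0.05) and, beneath it, values with 1 library left out (triangles), from limma on FPKM (squares) and from other count fits (diamonds). No value crosses 0 for any gene, and those of *EDS1* come nearest, up to −0.002 without WT replicate 1.

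By FPKM, which allows levels to be compared between genes, *NIMIN1* and *EDS1* were the highest of the 10 and *PBS3* and *EDS5* the lowest in both genotypes. In WT the mean FPKM were 42.8 ± 7.4 for *NIMIN1*, 34.5 ± 10.9 for *EDS1*, 22.0 ± 3.2 for *PAD4*, 16.6 ± 3.1 for *SARD1*, 16.6 ± 0.92 for *NPR1* and 13.4 ± 2.7 for *SAG101* (SD, n = 3). Below these came *ICS1* at 5.53 ± 0.24, *CBP60g* at 3.01 ± 0.73, *PBS3* at 0.973 ± 0.46 and *EDS5* at 0.584 ± 0.037 FPKM. The ranges of *NIMIN1* and *EDS1* overlapped, as did those of neighbours from *PAD4* to *SAG101*, so these neighbours were not separated by their spread, whereas the steps from *SAG101* down to *EDS5* had no overlap.

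In *vip3-1* the order changed at several places. *EDS1*, at 29.8 ± 3.6 FPKM, came before *NIMIN1*, at 22.6 ± 1.3, without overlap. *NPR1* (13.2 ± 1.4 FPKM), *PAD4* (11.7 ± 3.8), *SAG101* (7.81 ± 0.31) and *SARD1* (5.90 ± 2.6) followed, each overlapping the next, and then *ICS1* at 4.09 ± 0.72. *CBP60g* at 1.40 ± 0.42 overlapped *EDS5* at 1.18 ± 0.12, and *PBS3* at 0.404 ± 0.12 FPKM was the lowest. *EDS5* thus lay below *PBS3* in every WT library and above it in every *vip3-1* library.

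**Figure D4:**
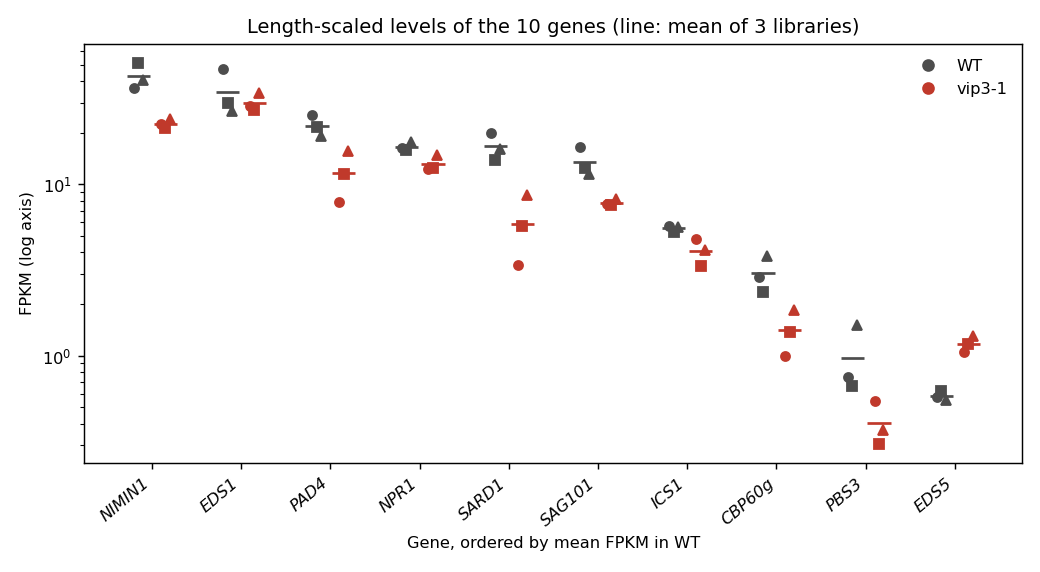
FPKM (log axis) of the 10 regulators in each library of WT (grey) and *vip3-1* (red), ordered by the WT mean, with lines for the mean of 3 libraries. Levels run from 42.8 FPKM for *NIMIN1* to 0.584 for *EDS5* in WT, and *EDS5* is the only gene whose *vip3-1* points lie above those of WT.

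The spread within a genotype is given as a description, since the results known when the genes were chosen depend on it too. All tested genes, set beside the 10 here, were not matched to them by count level. The median SD of log2 CPM was 0.25 over the 10 regulators in WT and 0.20 in *vip3-1*, and it was 0.17 and 0.11 over all tested genes. In *vip3-1*, *SARD1* (SD 0.62), *PAD4* (0.43) and *CBP60g* (0.42) varied most, and *NIMIN1* (0.084), *SAG101* (0.10) and *EDS5* (0.11) least. In WT, *PBS3* varied most (0.66) and *EDS5* least (0.084). Within *vip3-1*, replicate 3 was the highest library for 8 of the 10 genes and replicate 1 the lowest for 7 of the 10, where they held these places for 37.2% and 34.2% of all tested genes. The exceptions to the former were *ICS1* and *PBS3*, both highest in *vip3-1* replicate 1. In WT no library was highest for more than 4 of the 10.

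The 5 genes whose log2 CPM over the 6 libraries was most like that of *ICS1*, among 16938 tested genes whose mean log2 CPM reached 1, were AT1G07570 (*APK1A*, Pearson r = 0.9974), AT5G41120 (0.9945), AT3G21790 (0.9933), AT2G40160 (*TBL30*, 0.9927) and AT4G38360 (*LAZ1*, 0.9922). The 6 points fall into the 2 genotypes and 298 genes had an r above 0.95, so that this likeness is a description of few points. None of the other 9 regulators was among the 5.

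In the wider salicylic acid pathway, 56 of 57 listed genes passed the filter on low counts, and 16 (28.6%) were called, 7 higher and 9 lower, beside 30.7% of all tested genes. Their median log2 fold change was −0.09, beside −0.02 over all tested genes and −0.82 over the 10 regulators. With the replicate block 22 were called, 7 higher and 15 lower, beside 35.7% of all tested genes. Unblocked, 10 were called without *vip3-1* replicate 1, beside 3238 of 20987 tested genes. Without *vip3-1* replicate 2 the number was 8, beside 2673 of 21045 tested genes.

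None of the 7 other synthesis genes was called lower, except that AT2G21340, annotated as a MATE efflux protein, was called with the replicate block at −0.22. *ICS2*, the second isochorismate synthase gene, stood at 3.33, 4.00 and 1.79 CPM in WT and at 3.49, 3.78 and 2.54 CPM in *vip3-1* (log2 fold change 0.11 ± 0.33, SE), with overlapping genotypes, which leaves a wide range of changes possible. In the phenylalanine ammonia-lyase route, *PAL3* rose by 1.17 ± 0.24 on the log2 scale (SE, edgeR adjusted p = 0.0151) and *PAL1* by 0.81 ± 0.10 (adjusted p = 0.00359). The *PAL3* call was lost without WT replicate 2 (1.11), *vip3-1* replicate 2 (1.16) or *vip3-1* replicate 3 (1.12). The remaining 5, *ICS2* included, were not called. Of 7 tested genes for enzymes that modify salicylic acid 1 was called (14.3%, beside 30.7% of all tested genes). It was *DMR6*, which encodes a hydroxylase of salicylic acid, at 60.0, 62.4 and 57.8 CPM in WT and 12.6, 17.9 and 27.8 CPM in *vip3-1* (log2 fold change −1.63 ± 0.27, SE, edgeR adjusted p = 0.00784). The median log2 fold change of the 7 was −1.21, over a range of −1.74 to 1.16. Several of the uncalled genes had few counts and a wide spread, so they were not shown to be unchanged.

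Of 13 NPR relatives, NIMIN and TGA genes, 3 were called (23.1%, beside 30.7% of all tested genes). *NIMIN2*, a relative of *NIMIN1* whose product also binds NPR1, was at 7.86, 7.70 and 5.82 CPM in WT and 2.02, 2.64 and 2.29 CPM in *vip3-1* (log2 fold change −1.62 ± 0.18, SE, edgeR adjusted p = 0.00297). *TGA7*, a gene of the TGA family, rose by 1.24 ± 0.30 (SE, edgeR adjusted p = 0.0259), a call lost without WT replicate 2 (1.08) or any *vip3-1* library (1.07 to 1.35). *TGA6* was also called lower, and not without *vip3-1* replicate 1 (−0.50) or replicate 2 (−0.58). *NPR3* and *NPR4*, receptors of salicylic acid that repress transcription, had log2 fold changes of −0.19 and −0.40 and were not called, and *NPR4* was called with the replicate block at −0.38.

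Of 6 further genes of the family of *CBP60g* and *SARD1*, 2 were called (33.3%, beside 30.7% of all tested genes), both higher. They were AT2G24300 (log2 fold change 0.81 ± 0.075, SE, edgeR adjusted p = 0.00164) and AT4G31000 (0.58 ± 0.11, edgeR adjusted p = 0.0113, not called without *vip3-1* replicate 2 at 0.58). The other 4 lay between −0.09 and 0.10. Among 7 genes of the EDS1 copy and of helper receptors, 3 were called (42.9%, beside 30.7% of all tested genes), all lower. They were AT3G48080 as above, *NDR1* and AT5G66900. With the replicate block 5 of the 7 were called lower, the additions being *ADR1-L1* (−0.35) and AT5G66910 (−0.32), where 35.7% of all tested genes were called in either direction. *NDR1*, which resistance proteins of the coiled-coil class require, had a log2 fold change of −1.07 ± 0.23 (SE, edgeR adjusted p = 0.0184) and the call was lost when any 1 *vip3-1* library was left out (−1.11 to −1.05).

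Of 5 WRKY factor genes, 3 were called (60%, beside 30.7% of all tested genes). *WRKY28*, whose product activates *ICS1* in *Arabidopsis*, stood at 0.255, 0.246 and 0.704 CPM in WT and at 2.02, 2.76 and 3.70 CPM in *vip3-1* (log2 fold change 2.82 ± 0.50, SE, edgeR adjusted p = 0.00956), so that it was higher in all *vip3-1* libraries while *ICS1* was lower in all. *WRKY54* (log2 fold change −1.12 ± 0.17, SE, edgeR adjusted p = 0.00677) and *WRKY70*, which act together in salicylic acid signalling, were lower. The *WRKY70* call was lost without WT replicate 1 (−0.67), *vip3-1* replicate 1 (−0.53) or *vip3-1* replicate 2 (−0.66).

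Of 11 upstream immune regulators, 2 were called (18.2%, beside 30.7% of all tested genes). With the replicate block 4 were called, beside 35.7% of all tested genes, the additions being *SNC1* (−0.32) and *CPR1* (−0.34), both lower. *ACD6*, an ankyrin-repeat membrane protein that promotes salicylic acid signalling, stood at 6.09, 5.11 and 22.6 CPM in WT and at 1.73, 0.296 and 1.35 CPM in *vip3-1* (log2 fold change −3.32 ± 0.82, SE, edgeR adjusted p = 0.0264). It was −2.31 and still called without WT replicate 3, and the call was lost when any 1 *vip3-1* library was left out (−3.78 to −2.88). AT5G46070, annotated as a guanylate-binding protein, rose by 0.30 ± 0.078 (SE, edgeR adjusted p = 0.0311) and the call held without WT replicate 3 (0.23) and was lost when any other single library was left out (0.27 to 0.34).

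The pathogenesis-related genes *PR1*, *PR2* and *PR5*, common readouts of salicylic acid, were all lower, with log2 fold changes of −5.14 ± 0.75, −3.41 ± 0.52 and −4.45 ± 0.50 (SE). *PR1* itself ranged from 2.88 to 18.0 CPM over the WT libraries and from 0.194 to 0.333 CPM over those of *vip3-1*.

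**Figure D5:**
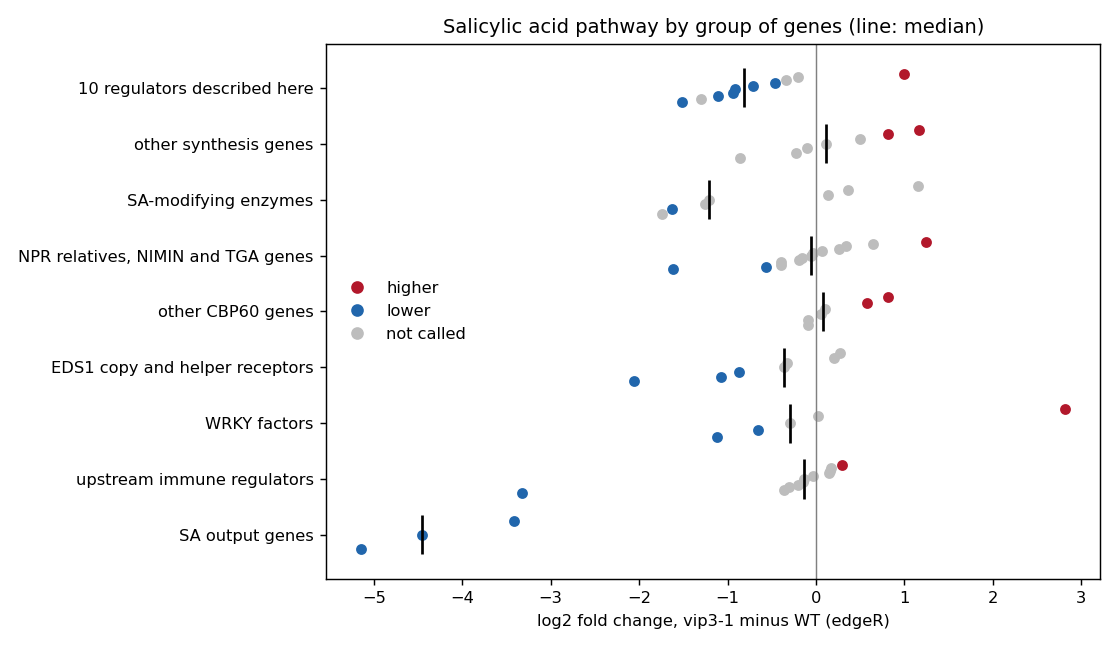
Log2 fold change of *vip3-1* against WT (horizontal axis, edgeR) for the 10 regulators, the tested genes of the wider pathway by group, and the output genes *PR1*, *PR2* and *PR5*, with red for called higher, blue for called lower, grey for not called and a line for each group's median. The median is −0.82 for the 10 regulators and −4.45 for the output genes, and 7 points of the wider pathway are red and 9 blue.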

How the data were processed

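RNA-seq of shoot apices was compared between 3 WT and 3 *vip3-1* libraries. Adapters were removed by the authors with Trimmomatic, reads were mapped to TAIR10 with TopHat2 2.0.6 and Bowtie2 2.0.5, and expression was estimated with Cufflinks 2.1.1, as named in the methods and the submitters' processing notes. The deposited estimated counts are fragments per gene left unscaled by the authors. They were taken for whole counts in the plan, but 1.47% were not whole and were rounded, and all 60 values of the 10 genes were whole. The deposited FPKM were scaled by the authors for transcript length and mapped fragments. The authors' own Cuffdiff output, deposited as mean FPKM, fold changes, p-values and q-values of the genes they called, was not used. Libraries held 50040048 to 69033269 counts.

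Genotypes were compared over all genes with edgeR 4.0.16 (R 4.3.3), by its quasi-likelihood F-test with genotype alone in the model, after TMM and filterByExpr, with Benjamini-Hochberg adjustment. Genes were called at an adjusted p-value under 0.05. The SE is the size of the log2 fold change over √F, and the SD of log2 CPM used a prior count of 2. The code was tested on simulated data. The members and lists were chosen with earlier results of these data known. Named genes are the 10 members, the 2 largest called changes per pathway list (any other called gene of a list may be named), *ICS2*, AT3G48080, the output genes and the 5 genes most like *ICS1*, and *NPR3* and the genes whose call the block changed, *NPR4* and AT2G21340 among them, were added after their values were seen. All 10 loci matched the RefSeq TAIR10.1 gene table, from which positions, sequences and overlaps were taken.

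Replicate numbers come from the labels, and no source used here gives libraries of one number a common culture or harvest. Deviations of same-numbered libraries from their genotype means correlated at 0.217, 0.190 and 0.367, all above the mark of 0.1, although WT replicate 1 and *vip3-1* replicate 2 correlated at 0.289. The numbers were therefore taken as a possible pairing. The main fit, with genotype alone, does not use this pairing, and the replicate number entered as a block in an alternative fit. For the members, the pathway lists and the markers, the blocked value is given where it changed a call. No library was a copy of another (chi-square per degree of freedom 22.6 to 138 within genotypes).

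The alternatives tried were the replicate block, library sizes left without TMM, DESeq2 1.42.0 (its own size factors, neither outlier check nor independent filtering), a minimum of 10 counts per library, testing without the low-count filter, limma 3.58.1 on log2(FPKM + 1), on log2(FPKM + 0.1) and on log2(FPKM + 1) without the filter of a mean FPKM of at least 1, each library left out in turn, and, for *EDS1*, its counts summed with those of AT3G48080.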

Additional observations from a re-analysis of the deposited data

How the results depend on the processing

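No alternative reversed the direction of any of the 10 regulators. With limma on FPKM, 4 of the 8 regulators tested were called with a pseudocount of 1 and 4 of 8 with 0.1. In these fits 3363 and 3412 of 18853 tested genes were called. Without the filter, 4 of the 10 regulators, 10 of the 57 other pathway genes and 3297 of 26635 tested genes were called. *EDS5* and *PBS3* had a mean FPKM below 1 and were tested in the last of these alone. Leaving out 1 library at a time gave 2673 to 8055 called genes, 1 to 7 of the 10 regulators and 8 to 19 of the other pathway genes. The lowest of each came without *vip3-1* replicate 2, where *NIMIN1* was the regulator still called, and the highest without WT replicate 3. Fewer libraries lower the power of each such fit. DESeq2 and library sizes without TMM each called 9 of the 10, the 7 and also *NPR1* and *PBS3*. Of all 20690 tested genes DESeq2 called 8084 and the fit without TMM 7056, both more than the 6354 of the main fit. A minimum of 10 counts in every library called 8 of the 10, with *PBS3*, and 6103 of 19351 tested genes. Without TMM the median log2 fold change of all tested genes was −0.11 and that of the 10 was −0.91, against −0.02 and −0.82. With the replicate block, 8 of the 10 regulators, 22 other pathway genes and 7388 genes in all were called, and *NPR1* was the single regulator whose call it changed. Over the alternatives, *SARD1* and *SAG101* were called in 13 of 14, *PAD4* in 9, *CBP60g* in 8, *ICS1* in 6 and *EDS1* in none of 15. The lowest count of the 10 genes, 28, belonged to *PBS3*.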
